A study of Macaca fascicularis with 4 samples.

Results

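FXYD2, LGALS2, MAL, CALB1, LRP2, CUBN and AQP1 make up a set of 7 genes labelled as mesonephric tubule transport genes. They were taken by symbol, and each of the 7 had 1 row among the 26223 gene rows of the 4 libraries of cynomolgus monkey embryos. Their row identifiers in the deposited tables are gene23923 for FXYD2, gene17023 for LGALS2, gene21166 for MAL, gene14958 for CALB1, gene20406 for LRP2, gene15613 for CUBN and gene5930 for AQP1. The mesonephros is a transient kidney of the embryo, in which tubules form from nephrogenic mesenchyme beside the nephric duct and open into it. PAX8 is a transcription factor of both tubule and duct, and GATA3 is a transcription factor that in mice is needed in the duct. Barcodes with PAX8 and no GATA3 were therefore set against barcodes with both, to tell tubule from duct.

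The study asked, by its title, how gonadal somatic cells arise in mice and monkeys, and only the droplet single-cell libraries of monkey embryos were analysed here. There was 1 library for each of 4 ages: E24, or embryonic day 24, at Carnegie stage 11; E28 at stage 13; E31, which is Carnegie stage 14; and lastly E37, of stage 18. The labels name no treatment and no genetic change. The E24 tissue was most of the trunk, the E28 and E31 tissue was the urogenital ridge with the mesonephros, and the E37 tissue was mainly the gonadal ridge with most of the mesonephros trimmed away. The E24 label names 2 embryos, but its barcodes form 1 library, and which kit version each library used is not given.

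The libraries held 10639, 5028, 6661 and 5298 barcodes at E24, E28, E31 and E37, with 40243286 to 115332663 unique molecular identifiers (UMIs, counted transcript molecules) in a library and a median of 6672.5 to 11391 UMIs in a barcode. After removal of called doublets and of barcodes with under 500 genes, 10639, 4964, 6654 and 5288 barcodes were kept. Between 37 and 111 barcode sequences were shared by any pair of libraries, or 0.736% to 1.67% of the smaller one. With 1 library at each stage there is no replicate, no test was run and no p-value is given. Intervals are 95% intervals for counting error within a library only. A level is the sum of the UMIs of a gene over a group of barcodes, per 1000000 UMIs of those barcodes (CPM), with an exact Poisson interval. The floor of 3 counts lay between 0.0260 CPM at E24 and 0.0747 CPM at E37.

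FXYD2, LGALS2, MAL and LRP2 were highest in clusters of tubule-like cells at E28, and FXYD2, LGALS2 and LRP2 were so at E31, as the label of tubule genes has it. CALB1 went against that label under the cluster names used here. Its highest levels at both stages lay in clusters with more GATA3 than PAX8 or with nephric duct markers. Clusters with more GATA3 than PAX8 were denied a tubule name, although nephric tubule markers were their best list. Of 10 such markers, 6 were high in cluster 4 of E28, and 5 in each of clusters 14 and 4 of E31. CUBN and AQP1 were near the floor in tubule-like cells of E28 and E31. By these names the label holds at E28 for 4 of the 7 genes and at E31 for 3. The rule that denied the name was set after the data were seen. Without it, the E31 cluster highest in CALB1 would have been named tubule-like, so the count at E31 rests on the rule. MAL was highest in an unnamed cluster at E31.

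FXYD2 encodes the gamma subunit that regulates the sodium pump Na,K-ATPase. Over all barcodes it reached 1.57 CPM at E24, 83.5 at E28, 47.4 at E31 and 6.4 at E37, from 181, 5112, 3422 and 257 UMIs. The 2 libraries with mesonephros were far above the others, and at E37 73.5% of the UMIs came from the 10 richest barcodes and 20.2% from the richest, which held 52. LGALS2 encodes galectin-2, a protein that binds sugars of the galactoside kind. It stood at 2.12, 18, 9.11 and 1.17 CPM, from 245, 1104, 657 and 47 UMIs. MAL encodes a membrane protein of lipid rafts that takes part in traffic to the apical surface of epithelia. It stood at 0.0954, 59.1, 42.4 and 1.32 CPM, from 11, 3616, 3058 and 53 UMIs. All of these were highest at E28 and next highest at E31.

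LRP2 encodes megalin, the large endocytic receptor that takes up filtered protein at the apical surface of proximal tubules. It reached 9.66 CPM at E24, 18.4 at E28, 13.1 at E31 and 1.99 at E37, from 1114, 1124, 943 and 80 UMIs, and so was well above the floor before mesonephric tubules were sampled. CALB1 encodes calbindin-D28k, a calcium-buffering protein of distal nephron segments that is also used as a marker of the nephric duct and ureteric bud in mice. It stood at 1.45, 232, 218 and 5.63 CPM, from 167, 14221, 15704 and 226 UMIs. Barcodes with any CALB1 held 1.49, 19.8, 23.2 and 5.02 UMIs of it on average, and the richest held 193 at E28.

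CUBN encodes cubilin, the receptor that works with megalin and amnionless in protein uptake. It was listed at 0.624, 0.458, 0.568 and 0.971 CPM over the 4 stages, from 72, 28, 41 and 39 UMIs. Its intervals overlapped at E24, E28 and E31, and that of E37 (0.691 to 1.33 CPM) overlapped those of E24 and E31. At E37 the richest barcode held 20.5% of the CUBN UMIs. AQP1 encodes a water channel of proximal tubules, red blood cells and some endothelium. It stood at 24.7, 1.39, 0.707 and 2.71 CPM, from 2849, 85, 51 and 109 UMIs, and was thus highest at E24 and lowest at E31. CUBN was highest at E37, so neither gene was highest at E28, as FXYD2, LGALS2, MAL, CALB1 and LRP2 were.

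**Figure D1:**
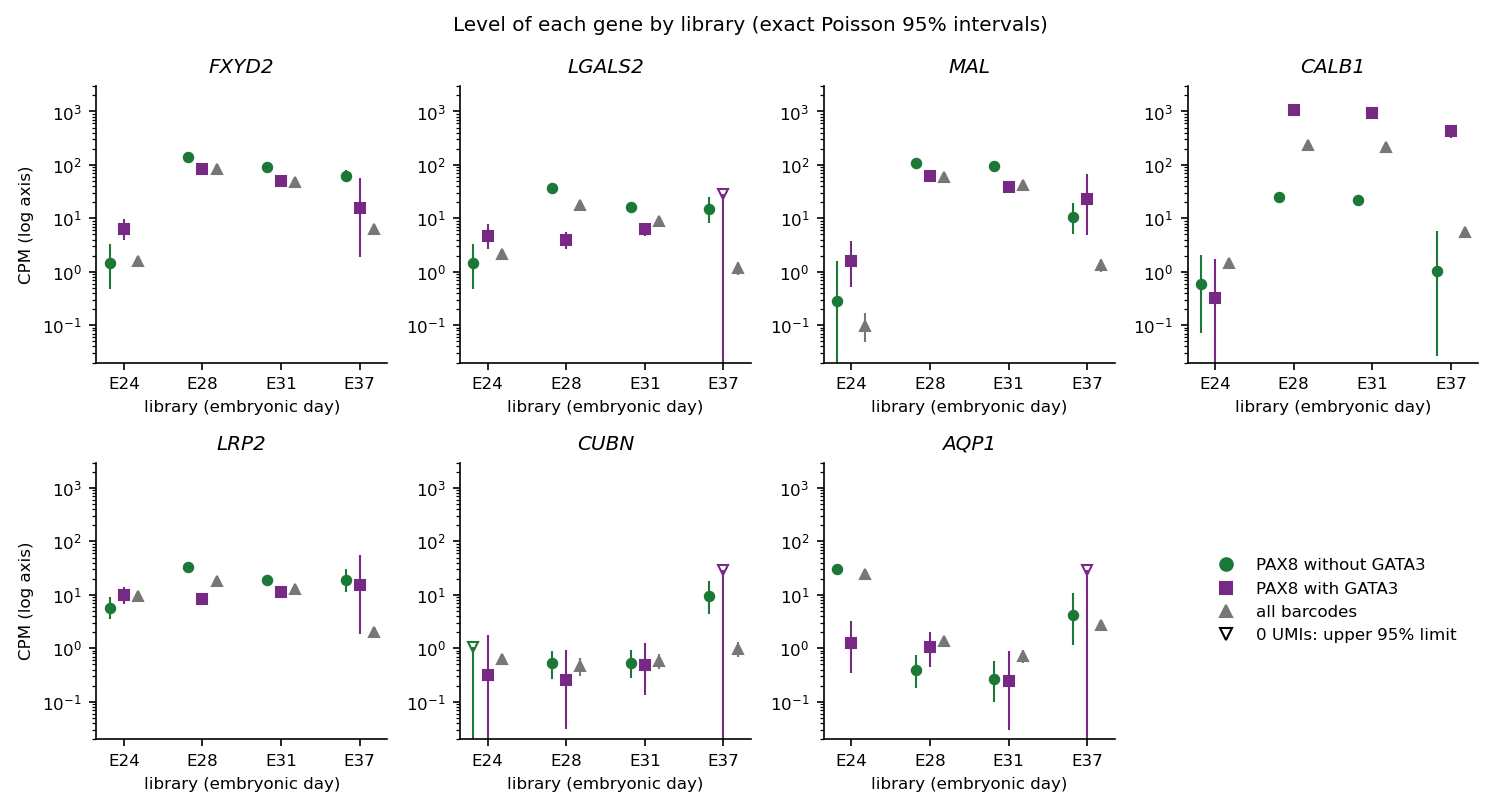
Level of each of the 7 genes in CPM on a log axis, at E24, E28, E31 and E37, for barcodes with PAX8 and no GATA3 (circles), barcodes with PAX8 and GATA3 (squares) and all barcodes (triangles). Bars are exact Poisson 95% intervals and open triangles mark the upper limit of a set with 0 UMIs; CALB1 stands at 24.9 CPM without GATA3 and 1064 CPM with it at E28, the widest gap of the 7.

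A share is the percent of barcodes with at least 1 UMI of a gene, and it depends on depth, so each share is also given after every barcode was thinned at random to 2000 UMIs. FXYD2 was found in 18.6% of barcodes at E28 and 13.2% at E31, or 9.97% and 6.33% after thinning. MAL was found in 26.7% and 18.5%, or 10.2% and 7.21% after thinning. CALB1 was found in 14.5% and 10.2%, or 8.44% and 6.70% after thinning. MAL was thus found in the most barcodes of the 7 genes at both stages, while CALB1 was held in large numbers by fewer barcodes. LRP2 was found in 9.27% and 8.10%, and in 3.20% and 2.30% after thinning. LGALS2 was found in 7.23% and 4.40%, and in 2.86% and 1.67% after thinning. CUBN was found in 0.564% at E28 and 0.556% at E31. Of endothelium-like barcodes, 0.917% (0.111% to 3.27%) and 0.980% (0.203% to 2.84%) held a CUBN UMI, at median depths of 13097.5 and 10392 UMIs there. Those shares rest on 2 of 218 and 3 of 306 barcodes. At E31 the endothelium-like cluster had rank 2 among clusters by CUBN level, at 1.54 CPM. Whether the CUBN UMIs are background was not tested.

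The split of PAX8 barcodes by GATA3 gave 286, 1812, 1928 and 110 barcodes with PAX8 and no GATA3 at E24, E28, E31 and E37, called the tubule set, and 234, 528, 554 and 11 with both, called the duct set. The split asks for 1 UMI and so is coarse. By the clusters described further on, the tubule set at E28 was 34.1% nephrogenic mesenchyme-like, 24.9% tubule-like, 21.2% podocyte-like and 15.8% mesenchyme-like cells. The duct set at E28 was 33.7% mesenchyme-like, 10.8% duct-like and 23.3% cells of a cluster with more GATA3 than PAX8. At E31 the tubule set was 42.0% nephrogenic mesenchyme-like, 15.7% podocyte-like and 8.35% tubule-like. Median depth was 11955 UMIs in the tubule set and 13241.5 in the duct set at E28, and 10596.5 and 12709 at E31.

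Lists of cell type markers also differed between the sets, and their part in the results below was not tested. At E28 the summed level of 8 podocyte markers was 1012 CPM in the tubule set and 372 CPM in the duct set, and that of 6 nephric duct markers was 67.5 and 151 CPM, with no marker of either list at 0. The sum over 9 nephric tubule markers went against the set names. It was 537 CPM in the tubule set and 701 CPM in the duct set at E28, where 1 of the 9 was at 0 in the duct set. At E31 it was 568 and 648 CPM. The sum over 7 mesenchyme markers was 328 CPM in the tubule set and 525 CPM in the duct set. The sum over 9 erythroid markers was 1092 CPM in the tubule set and 2251 CPM in the duct set at E28, and 1645 and 93 CPM at E31, where 1 of the 9 was at 0 in the duct set.

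A gene was counted as higher or lower where the sets were at least 2-fold apart with at least 20 UMIs over both. At E28, 5 of the 7 genes had enough UMIs, and LGALS2 and LRP2 were counted as higher in the tubule set and CALB1 as lower. Of all 14663 genes with enough UMIs, 4.16% were higher and 5.00% were lower by the same rule. At E31, LGALS2 and MAL were counted as higher and CALB1 as lower among the same 5 genes, against 3.35% higher and 4.56% lower of 14420 genes. The median log2 ratio of the 5 genes was 0.82 at both stages, and that of all genes was 0.01 at E28 and -0.00 at E31.

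LGALS2 had 36.8 CPM in the tubule set and 3.89 CPM in the duct set at E28, a ratio of 9.45 (6.57 to 14.1). At E31 it had 16.7 CPM in the tubule set and 6.20 CPM in the duct set, a ratio of 2.69 (2.0 to 3.69). The tubule set held 76.7% of all LGALS2 UMIs of the E28 library. LRP2 had 33.5 CPM in the tubule set and 8.43 CPM in the duct set at E28, a ratio of 3.98 (3.09 to 5.21). At E31 it had 18.6 and 11.3 CPM, a ratio of 1.65 (1.31 to 2.1), which did not reach 2-fold. Both genes were higher in the tubule set at both stages, with counting intervals above 1.

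FXYD2 had 141 CPM in the tubule set and 83 CPM in the duct set at E28, a ratio of 1.70 (1.57 to 1.86). At E31 it had 90.2 and 51.0 CPM, a ratio of 1.77 (1.59 to 1.97). Its share of barcodes was 27.5% in the tubule set and 30.5% in the duct set at E28, and 16.0% and 12.1% after thinning, so the order of the shares turned with depth. Where PAX8 and GATA3 were each asked for at 2 UMIs, the log2 ratio of FXYD2 at E28 was 0.036, against 0.77 at 1 UMI. MAL had 110 CPM in the tubule set and 62.2 CPM in the duct set at E28, a ratio of 1.77 (1.60 to 1.95). At E31 it had 95.3 and 39.4 CPM, a ratio of 2.42 (2.15 to 2.73). FXYD2 and MAL were thus present on both sides of the split, with the tubule set the higher by less than 2-fold for both at E28.

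CALB1 lay the other way. It had 24.9 CPM in the tubule set and 1064 CPM in the duct set at E28, 42.7-fold lower in the tubule set (39.2 to 46.5). At E31 it had 22.2 CPM and 938 CPM, 42.3-fold lower (38.6 to 46.4). The share of barcodes with CALB1 was 9.49% in the tubule set and 43.2% in the duct set at E28. That 9.49% is close to the 8.72% of endothelium-like barcodes with a CALB1 UMI, at a median depth of 13097.5 UMIs, and after thinning the tubule set was at 1.88% and endothelium-like barcodes at 0.917%. Barcodes with GATA3 and no PAX8, 749 at E28 and 1019 at E31, also held CALB1, at 519 and 566 CPM. Of the CALB1 UMIs of the E28 library, 4.04% lay in the tubule set, 57.7% in the duct set and 34.5% in barcodes with GATA3 and no PAX8.

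CUBN had 12 UMIs in the tubule set and 2 in the duct set at E28, and 12 and 4 at E31. AQP1 had 9 UMIs in the tubule set and 8 in the duct set at E28, and 6 and 2 at E31. Both genes fell under the minimum of 20 UMIs at each stage, and a difference between the sets was not detectable at this depth.

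Clusters were built within each library with the 7 genes, PAX8, GATA3 and the lists of related genes left out of the clustering, so the levels of the 7 genes across clusters were not used to make them. Names rest on fixed markers, and a tubule name was withheld from clusters with more GATA3 than PAX8. At E28 the leading tubule-like cluster, cluster 1 with 412 cells, had 681 CPM of FXYD2 (658 to 704), 201 CPM of LGALS2, 226 CPM of MAL and 169 CPM of LRP2. In it, 93.4% of cells held FXYD2, 69.2% LGALS2, 73.1% MAL and 60.4% LRP2. It held 8.30% of the cells of the library but 66.7% of the FXYD2 UMIs, 90.9% of the LGALS2 UMIs and 75.3% of the LRP2 UMIs, while its share of the MAL UMIs was 31.3%. HNF4A, a transcription factor of proximal tubules, was at 62.5 CPM there, and SLC34A1, the proximal tubule phosphate transporter, was at 25.6 CPM. FXYD2, LGALS2 and LRP2 were therefore concentrated in a cluster with proximal genes, and MAL was not confined to it. CALB1 was at 19.8 CPM in that cluster.

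The other 2 tubule-like clusters of E28 carried parts of the set. Cluster 14, with 81 cells, was led by PAPPA2, IRX2 and IRX1 and had 409 CPM of SLC12A1, the salt transporter of the loop of Henle. There FXYD2 was at 289 CPM and MAL at 175 CPM, while LGALS2 was at 2.45 CPM and LRP2 at 1.23 CPM. Cluster 14, with its distal genes, thus held FXYD2 and MAL at levels of the same order as cluster 1, and almost no LGALS2 or LRP2. Cluster 9, with 112 cells, had 49.0 CPM of FXYD2, 19.4 CPM of LGALS2 and 141 CPM of MAL. Its name is weak, since 6 of 10 nephrogenic mesenchyme markers were also high in it, and it made up 4.30% of the tubule set of E28.

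CALB1 at E28 was highest in cluster 5, 129 duct-like cells, at 3965 CPM and in 99.2% of cells, and next in cluster 4, 234 cells with more GATA3 than PAX8, at 2757 CPM. These 2 clusters differed in FXYD2, which was at 22.4 CPM in the duct-like cluster 5 and at 345 CPM in cluster 4. WNT9B, a WNT ligand that the duct sends to the nephrogenic mesenchyme in mice, was at 58.4 CPM in cluster 5 and 35.7 CPM in cluster 4. TFAP2B, a transcription factor of distal tubules, was at 223 CPM in cluster 4. FXYD2 therefore was not limited to cells without GATA3, and among the cells with high CALB1 it was high in 1 cluster of the pair.

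At E31 the tubule-like cluster 5, with 246 cells, had 542 CPM of FXYD2, 174 CPM of LGALS2, 179 CPM of MAL, 117 CPM of LRP2 and 9.13 CPM of CALB1. CALB1 was highest in clusters 14 (387 cells) and 4 (247 cells), both with more GATA3 than PAX8, at 2862 and 698 CPM. No cluster was duct-like by name at E31. MAL was highest in cluster 20, 133 unnamed cells, at 304 CPM. That cluster also had 295 CPM of FXYD2 and 1270 CPM of the embryonic globin HBZ, and the part of red cell RNA in those values was not tested. Without it the E31 library had 37.5 CPM of MAL, against 42.4 CPM with it, and 42.8 CPM of FXYD2, against 47.4 CPM.

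MAL was spread over more kinds of nephric cells. At E28 it was at 164, 136 and 53.5 CPM in the podocyte-like clusters 7, 11 and 12 and at 142 CPM in the nephrogenic mesenchyme-like cluster 6, where FXYD2 was at 15.4 CPM. The median cluster of the E28 library had 5.09 CPM of MAL. At E31 the podocyte-like cluster 6 had 91.6 CPM and the nephrogenic mesenchyme-like cluster 10 had 136 CPM. The other nephrogenic mesenchyme-like clusters were much lower, at 5.09 and 25.0 CPM in clusters 0 and 19 of E28 and 3.43 and 1.32 CPM in clusters 0 and 21 of E31, where the median cluster had 2.70 CPM. The duct-like cluster 5 of E28 had 108 CPM. MAL therefore stood far above the median cluster in podocyte-like, tubule-like and duct-like cells of E28, and in 1 of the 3 nephrogenic mesenchyme-like clusters at each stage.

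**Figure D2:**
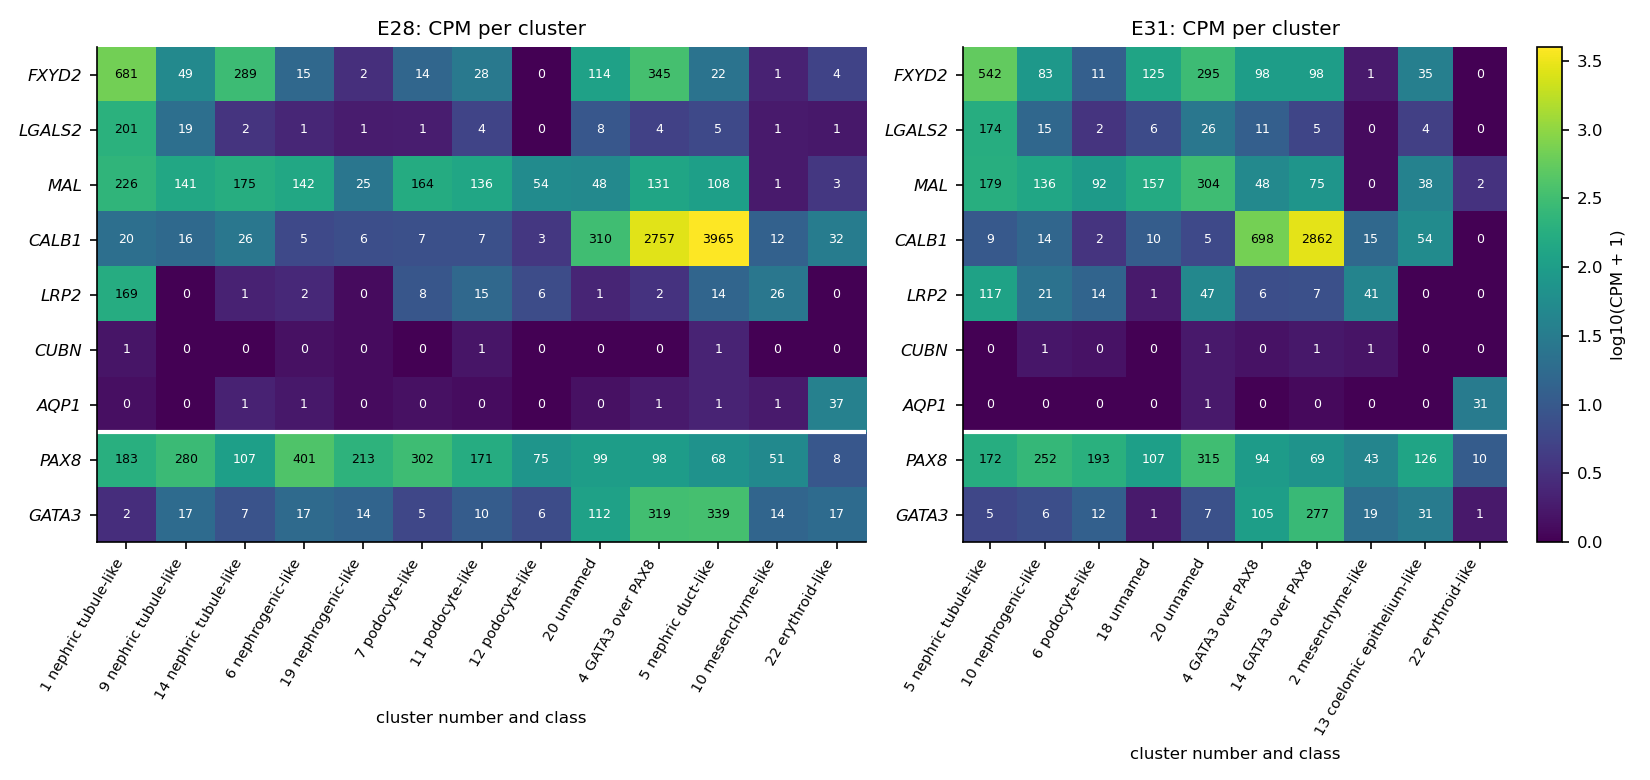
CPM of the 7 genes, and of PAX8 and GATA3 below the line, in the clusters of E28 (left) and E31 (right) where any of the 7 was above 20 CPM; colour is log10(CPM + 1) and columns are clusters with their number and class. FXYD2, LGALS2 and LRP2 share their highest cluster (1 at E28, 5 at E31), MAL is spread over tubule-like, nephrogenic and podocyte-like clusters, and CALB1 is highest where GATA3 is.

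When the clusters took the place of the split, the contrasts grew for the 5 measured genes, save MAL at E28. With tubule-like clusters set against duct-like clusters and those with more GATA3 than PAX8, the log2 ratio at E28 was 1.32 for FXYD2, 5.10 for LGALS2, 0.77 for MAL, -7.33 for CALB1 and 4.19 for LRP2. At E31 it was 2.46 for FXYD2, 4.46 for LGALS2, 1.53 for MAL, -7.62 for CALB1 and 4.20 for LRP2. The split at 1 UMI gave 0.77, 3.24, 0.82, -5.42 and 1.99 for the same genes at E28. All 5 directions were the same in both ways of making the sets, and FXYD2 and LRP2 passed 2-fold at both stages by clusters. With the duct-like cluster 5 alone as the duct at E28, the log2 ratio of FXYD2 was 4.62, since cluster 4 was left out.

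To see proximal against distal cells, barcodes of the tubule set were divided by HNF4A, a transcription factor of proximal tubules, against TFAP2B or POU3F3, transcription factors of distal ones, leaving out barcodes with both (6 at E28 and 4 at E31). This gave 153 proximal and 91 distal barcodes at E28, and 62 and 97 at E31. At E28, 5 of the 7 genes had enough UMIs, with 3 higher and 1 lower in the proximal set, against 6.06% higher and 5.19% lower of all 10179 genes measured. At E31, 4 were higher and 1 lower of 5, against 4.78% and 7.26% of 8816 genes.

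LRP2 had 228 CPM in the proximal set and 4.05 CPM in the distal set at E28, from 463 UMIs against 5. LGALS2 had 251 CPM in the proximal set and 4.05 CPM in the distal set, from 508 UMIs against 5, a ratio of 61.9 (26.4 to 192). It was found in 82.4% of proximal and 3.30% of distal barcodes. FXYD2 had 733 CPM in the proximal set and 252 CPM in the distal set, and was found in 94.1% and 74.7% of barcodes. LGALS2 and LRP2 were thus almost absent from the distal set, whereas FXYD2 was in most barcodes of both sets at a ratio of 2.91. MAL, at 232 and 122 CPM, differed by less than 2-fold.

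The directions were the same at E31. LRP2 had 176 CPM in the proximal set and 4.56 CPM in the distal set, and LGALS2 had 140.3 CPM and 3.80 CPM. FXYD2 had 629 CPM in the proximal set and 82.1 CPM in the distal set, a ratio of 7.65. MAL had 288 and 98.1 CPM, a ratio of 2.93. SLC12A1, which was not used to make the sets, was at 1.43 CPM in the proximal set and 145 CPM in the distal set at E31, and at 15.8 and 140.0 CPM at E28. Of the E31 proximal barcodes 41.9% lay in the tubule-like cluster 5, 37.1% in cluster 10 and 14.5% in cluster 20, the cluster with HBZ. At E28, 90.8% of the proximal barcodes lay in cluster 1. Of the E31 distal barcodes 40.2% lay in the unnamed cluster 18 and 9.28% in the neural crest or glia-like cluster 15. Another 23.7% and 21.6% lay in clusters 14 and 4, with more GATA3 than PAX8. At E28, 38.5% of the distal barcodes lay in cluster 14 and 28.6% in the unnamed cluster 20. POU3F3 had 2 UMIs in the distal set of each stage. The part of this make-up in the ratios was not tested.

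CALB1 had 18.8 CPM in the proximal set and 168 CPM in the distal set at E28, and 7.16 and 257 CPM at E31. The UMIs behind the distal value came from few cells. At E28, 49.8% of them lay in 8 barcodes of cluster 4, which had more GATA3 than PAX8, 33% in 2 barcodes of the duct-like cluster 5, and 0.483% in cluster 14, which held 38.5% of the distal barcodes. At E31, 96.4% lay in the 23 barcodes of cluster 14, again with more GATA3 than PAX8, and 0.592% in cluster 18, which held 40.2% of the barcodes. Another 13.5% of the E28 CALB1 UMIs of the distal set lay in the unnamed cluster 20, with 28.6% of the distal barcodes. The distal barcodes of cluster 14 of E28 and cluster 18 of E31, where SLC12A1 was among the leading genes, held little CALB1.

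CUBN had 3 UMIs in the proximal set and 0 in the distal set at E28, or 1.48 CPM in the proximal set (0.305 to 4.33). AQP1 had 2 and 1 UMIs. The partner receptor of megalin and the water channel of proximal tubules were therefore near the floor in the same barcodes in which LRP2 had 463 UMIs. DAB2, an adaptor of megalin uptake, was at 178 CPM in cluster 1, and AMN, which brings cubilin to the cell surface, was at 0 there.

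**Figure D3:**
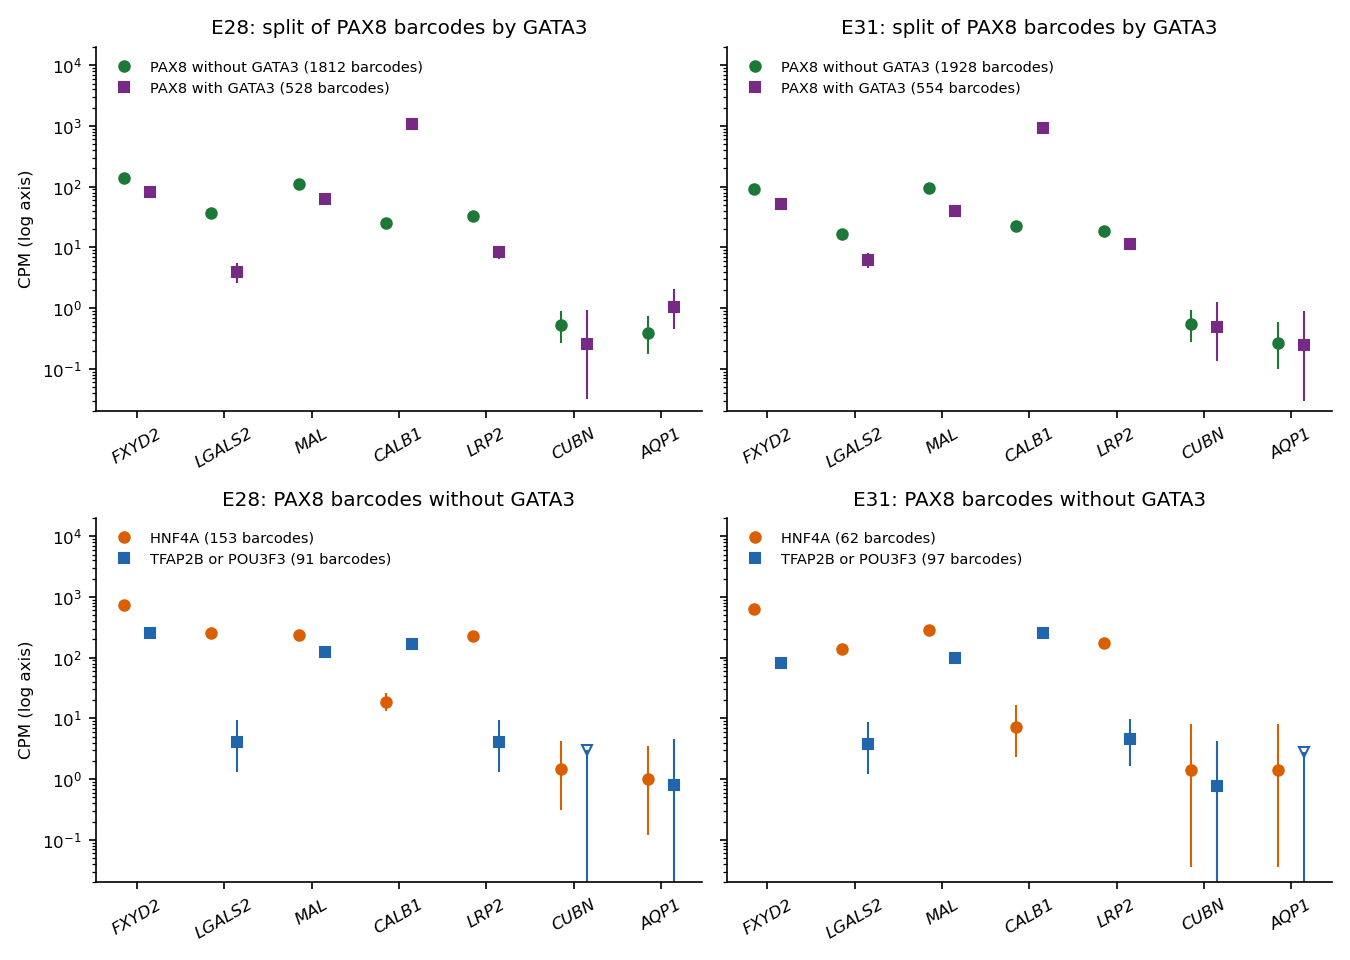
Level in CPM (log axis) of the 7 genes in the tubule set (circles) and the duct set (squares) above, and in proximal (HNF4A, circles) and distal (TFAP2B or POU3F3, squares) barcodes of the tubule set below, for E28 and E31. Bars are exact Poisson 95% intervals and open triangles the upper limit at 0 UMIs; LGALS2 and LRP2 fall below 5 CPM in the distal sets, and CALB1 alone lies higher in both the duct and the distal sets among genes above 20 UMIs.

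Co-detection counts the barcodes that hold a UMI of both genes. Its ratio divides that count by the count that would follow from multiplying the 2 shares, and it is a description of barcodes that share a library and differ in depth. At E28, 324 barcodes held FXYD2 and LGALS2, which was 90.3% of LGALS2 barcodes and 35.0% of FXYD2 barcodes, at a ratio of 4.84. At E31 the count was 264, or 90.1% of LGALS2 barcodes and 30.1% of FXYD2 barcodes. LGALS2 was therefore nearly always seen together with FXYD2, while most FXYD2 barcodes had no LGALS2. LGALS2 and LRP2 were found together in 226 barcodes at E28, 63.0% of LGALS2 and 49.1% of LRP2 barcodes, and in 155 at E31, 52.9% and 28.8%. Their ratios were 6.79 and 6.53, among the highest of the pairs at both stages.

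FXYD2 and MAL shared 613 barcodes at E28 and 569 at E31, at ratios of 2.48 and 3.51. FXYD2 and CALB1 shared 301 barcodes at E28 and 211 at E31, at ratios of 2.25 and 2.37. In the tubule set of E28, 15.1% of FXYD2 barcodes also held CALB1, and in the duct set 126 of 161 (78.3%) did. In the tubule set of E31, 8.39% of FXYD2 barcodes held CALB1, and 70.1% of those in the duct set did. FXYD2 was thus found with CALB1 in few of its barcodes where GATA3 was absent and in most where it was present.

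At E28 the ratios of CALB1 with LGALS2 and with LRP2 were lower than that of CALB1 with FXYD2. LGALS2 and CALB1 shared 68 barcodes at E28, at a ratio of 1.31, and CALB1 and LRP2 shared 85, at 1.28. After thinning to 2000 UMIs these ratios were 0.501 and 0.745. Thinning left 142 LGALS2, 419 CALB1 and 159 LRP2 barcodes at E28, so few were shared by these pairs. At E31 CALB1 and LRP2 shared 50 barcodes at 0.913, or 0.390 after thinning. The ratio of FXYD2 and LGALS2 after thinning was 7.56 at E28 and 10.1 at E31, and that of LGALS2 and LRP2 was 11.9 and 9.40. The ratios of FXYD2, LGALS2 and LRP2 with each other were thus higher after thinning. Those of CALB1 with LGALS2 and LRP2 were lower, on few shared barcodes, and a difference from 1 was not tested. CUBN and LRP2, the 2 receptors of protein uptake, shared 4 barcodes at E31, and no barcode of E28 held CUBN and AQP1 together.

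**Figure D4:**
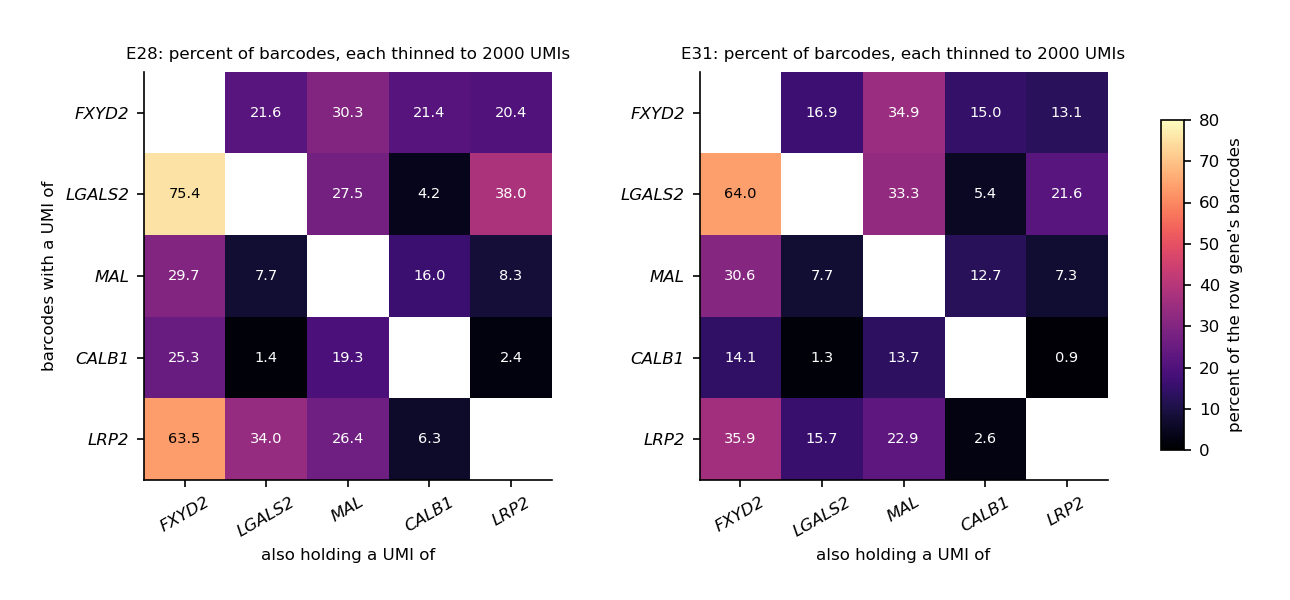
Percent of the barcodes with a UMI of the row gene that also held a UMI of the column gene, for 5 genes at E28 (left) and E31 (right), after each barcode was thinned to 2000 UMIs; CUBN and AQP1 are left out for their low counts. The LGALS2 row is brightest under FXYD2, and the cells joining CALB1 with LGALS2 or LRP2 are the darkest.

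At least 3 of the 7 genes were found in 42 barcodes at E24 (0.395%), 530 at E28 (10.7%), 418 at E31 (6.28%) and 10 at E37 (0.189%). At E28, 57.2% of those barcodes lay in the tubule-like cluster 1 and 23.4% in cluster 4, with more GATA3 than PAX8. At E31, 33% lay in the tubule-like cluster 5, 20.8% in cluster 14 and 18.2% in the nephrogenic mesenchyme-like cluster 10. At E24, 57.1% lay in a hepatic or yolk sac endoderm-like cluster of 41 cells. No barcode of any library held 6 or 7 of the genes.

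The tissue taken differed between E24 and E28 and between E31 and E37, while E28 and E31 had the same kind of tissue. Stages were therefore compared within the tubule sets, the PAX8 barcodes without GATA3. By cluster, 24.9% of the E28 set was tubule-like, and 60.1% of the E24 set was nephrogenic mesenchyme-like. At E28 against E24, 5 of 6 measured genes were higher and 1 lower, where 18% of all 14259 genes were higher and 3.72% lower. FXYD2 had 141 CPM at E28 and 1.45 CPM at E24, from 3261 UMIs against 5, a ratio of 97.7 (41.8 to 301). MAL had 2534 UMIs at E28 and 1 at E24, and LGALS2 had 847 and 5. LRP2 had 33.5 CPM at E28 and 5.80 CPM at E24, a ratio of 5.79 (3.72 to 9.53). FXYD2, LGALS2 and MAL were therefore near the floor in PAX8 cells of E24, while LRP2 was present. AQP1 was the gene that was lower, with 9 UMIs at E28 and 103 UMIs, in 14 barcodes, at E24.

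In the duct set at E28 against E24, 3 of 5 measured genes were higher and none of the 5 lower, against 15.7% higher and 3.32% lower of 12674 genes. CALB1 had 8209 UMIs in the duct set of E28 and 1 in that of E24. MAL had 62.2 CPM at E28 and 1.59 CPM at E24, from 5 UMIs, and FXYD2 had 83 and 6.36 CPM, a ratio of 13.1 (8.38 to 21.5). All 20 FXYD2 UMIs of the E24 duct set lay in 2 barcodes of the hepatic or yolk sac endoderm-like cluster 26, as did 13 of its 15 LGALS2 UMIs. Without the endoderm clusters 23 and 26, which left 231 barcodes, FXYD2 had 0 UMIs at E24 and was at least 85.1-fold higher at E28, against a floor of 3 UMIs over the set. LGALS2 then had 30 UMIs at E28 and 1 at E24, a ratio of 12 (1.99 to 488), against 0.816 with them. GATA3 and PAX8 were thus found together at E24 in 234 barcodes, 29.5% of them duct-like by cluster, with hardly any CALB1. The few MAL UMIs of E24 lay in duct-like cells, with 9 of 11 in the duct-like cluster 1 (81.8%).

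At E31 against E28 in the tubule set, LGALS2 was the only one of 6 measured genes past 2-fold, against 1.78% higher and 3.89% lower of 15155 genes. It was 2.21-fold lower at E31 (1.95 to 2.50). FXYD2 was 1.57-fold, MAL 1.15-fold, CALB1 1.12-fold and LRP2 1.80-fold lower. In the duct set at E31 against E28 none of 5 genes passed 2-fold in either direction, against 1.75% higher and 2.84% lower of 13398 genes, and CALB1 was at 938 CPM at E31 and 1064 CPM at E28. Between cluster 5 of E31 and cluster 1 of E28, both tubule-like, FXYD2 was at 542 and 681 CPM, LGALS2 at 174 and 201 CPM and LRP2 at 117 and 169 CPM, all closer than in the sets. MAL, at 179 and 226 CPM, and CALB1, at 9.13 and 19.8 CPM, were further apart than in the sets. The share of tubule-like cells in the set was 8.35% at E31 and 24.9% at E28, and its part in the set values was not tested.

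At E37 against E31 in the tubule set, 1 of 6 measured genes was higher and 2 were lower, against 7.60% higher and 14% lower of 13844 genes. MAL was 9.06-fold lower (4.92 to 18.9), and CALB1 had 1 UMI at E37 and 493 at E31. CUBN was higher, with 9 UMIs in 2 of 110 barcodes at E37 against 12 UMIs in 1928 barcodes at E31, a ratio of 17.5 (6.52 to 45.3). FXYD2, at 62.1 CPM in 7 barcodes, LGALS2, at 14.7 CPM in 4, and LRP2, at 18.9 CPM in 8, were within 2-fold of E31. These E37 values rest on few barcodes, and 52.7% of the set was nephrogenic mesenchyme-like.

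The PAX8 UMIs of E37 lay mainly in the nephrogenic mesenchyme-like cluster 15 (56.2%). FXYD2 and CALB1 instead lay mainly in cluster 26, 45 unnamed cells with 9.26% of the PAX8 UMIs. Nephric duct markers were the best list of that cluster, with 7 of 7 high. Cluster 26 held 74.7% of the FXYD2 UMIs, 70.8% of the CALB1 UMIs, 41.0% of the CUBN UMIs and 38.3% of the LGALS2 UMIs of the library. It held 32.1% of the MAL UMIs, while 64.2% of them, 34 UMIs in 8 cells, lay in cluster 6, 205 unnamed cells led by NPNT and OGN. The cells of cluster 26 were divided by GATA3 after the values had been seen. The 13 cells without GATA3 had 183 UMIs of FXYD2, or 2380 CPM (2048 to 2751), and the 32 cells with GATA3 had 9 UMIs, or 28.7 CPM. LRP2 had 21 UMIs in 6 cells without GATA3 and 4 UMIs in 3 cells with it, and LGALS2 had 18 and 0 UMIs. CALB1 had 1 UMI in the cells without GATA3 and 159 in those with it, 508 CPM. WNT9B had 1 UMI without GATA3 and 21 with it. The division of FXYD2, LGALS2 and LRP2 from CALB1 by GATA3 was therefore also seen in cluster 26, in few cells.

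CUBN in cluster 26 of E37 had 14 UMIs in 4 of the 13 cells without GATA3 (8 of them in 1 cell), or 182 CPM (99.5 to 305), and 2 UMIs in the 32 cells with GATA3. In the proximal set of E28, with 153 barcodes, it had 3 UMIs. SLC12A1 had 35 UMIs and AFP, the alpha-fetoprotein gene, had 73 UMIs in the 13 cells without GATA3, so genes of more than 1 kind of cell were present in that small group. AQP1 had 1 UMI in the 13 cells.

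Outside nephric cells the 7 genes had other sites. At E24 the hepatic or yolk sac endoderm-like cluster 26, with 41 cells, 12254 CPM of AFP and 182 CPM of HNF4A, had 124 CPM of FXYD2, 144 CPM of LGALS2 and 52.8 CPM of LRP2. CUBN was at 55.2 CPM there and in 65.9% of its cells, which held 65.3% of the CUBN UMIs of the library, while AMN had 1 UMI. Cluster 23, 388 unnamed cells led by FGB, SPINK1 and TTR, genes of endoderm and liver, had 24.6 CPM of CALB1, 21.3 CPM of LGALS2 and 9.54 CPM of FXYD2. It held 74.3% of the CALB1 UMIs of E24. At E37 the 15 hepatic or yolk sac endoderm-like cells had 289 CPM of FXYD2, found in 86.7% of them. FXYD2, LGALS2 and CUBN were thus held together by endoderm-like cells before mesonephric tubules were sampled, and at E24 LGALS2 and CUBN shared 28 barcodes, 53.8% of the CUBN barcodes.

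LRP2 at E24 was highest in cluster 13, 137 unnamed cells led by WFDC2, GABRP and VTCN1, at 91.8 CPM and in 63.5% of cells. It was at 59.2 CPM in the neural tube-like cluster 19, and at 41.1 CPM in the surface ectoderm-like cluster 10, which held 28.7% of the LRP2 UMIs of that library. In the libraries with mesonephros, mesenchyme-like clusters held it too, at 25.7 CPM in cluster 10 of E28 and 40.7 CPM in cluster 2 of E31. The median cluster of E24 had 4.12 CPM of LRP2, so the gene was broad as well as high in a few clusters.

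AQP1 at E24 was at 677 CPM (648 to 706) in cluster 12, 254 mesenchyme-like cells led by AQP1, LUM, FRZB and IGFBP3, and found in 71.7% of them. That cluster held 73.1% of the AQP1 UMIs of the library and also had 303 CPM of EPCAM, an adhesion molecule of epithelia. Cluster 7, 512 mesenchyme-like cells, had 88.1 CPM. At E28 and E31 AQP1 was highest in erythroid-like cells, at 37.3 CPM in the erythroid-like cluster of E28, where 62.4% of its UMIs lay, and at 30.9 CPM in that of E31, with 78.4%. In the E28 tubule-like cluster 1 it was at 0.40 CPM, and in the endothelium-like cluster 8 at 1.59 CPM. At E37 it was highest in the endothelium-like cluster 24, 21 cells with 6 UMIs, at 34.0 CPM.

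**Figure D5:**
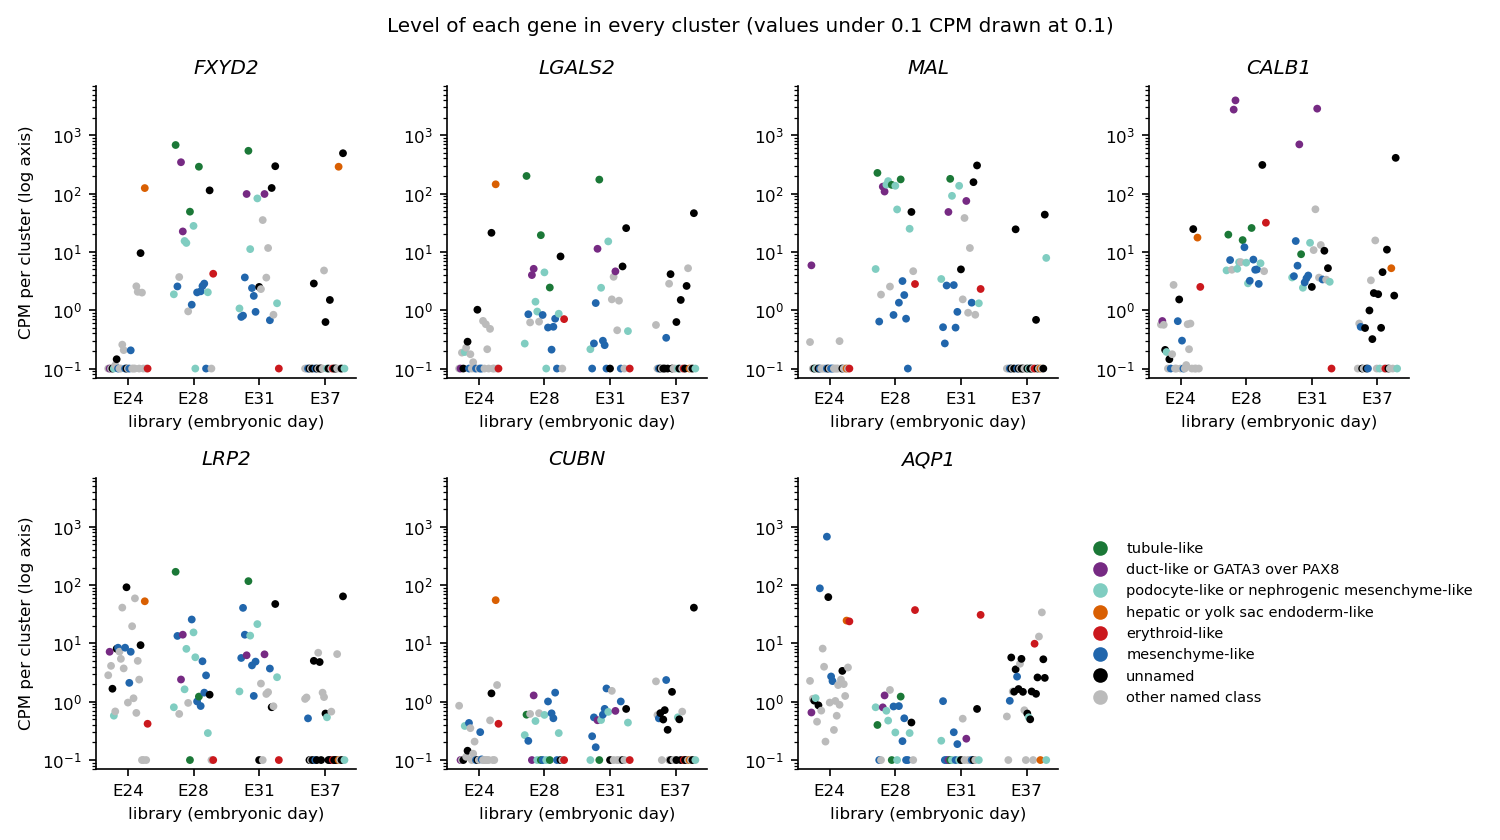
CPM (log axis) of the 7 genes in every cluster of each library, 1 point per cluster, coloured by class; values under 0.1 CPM are drawn at 0.1. FXYD2 and LGALS2 are topped by a hepatic or yolk sac endoderm-like cluster at E24 and by tubule-like clusters at E28 and E31. CALB1 is topped by a duct-like cluster at E28 and by one with more GATA3 than PAX8 at E31. At E24 and E37 an unnamed cluster tops CALB1. AQP1 is topped by a mesenchyme-like cluster at E24 and by erythroid-like clusters at E28 and E31.

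Likeness was measured by Pearson's r of log2(CPM + 5) over 100 clusters of the 4 libraries, for 13298 genes. The clusters of a library share its depth and its ambient RNA, so r is given as a description with no p. FXYD2 was most like PRODH2 (0.942), HOGA1 (0.937) and KIF12 (0.925). PRODH2 and HOGA1 encode enzymes that break down hydroxyproline in liver and kidney. LGALS2 was most like FABP1 (0.904), SMLR1 (0.890) and PDZD3 (0.884). FABP1 encodes the fatty acid binding protein of liver and PDZD3 a scaffold protein of epithelia. MAL was most like DCDC2 (0.906), MYOZ1 (0.873) and SCML4 (0.872). CALB1 was most like EMX1 (0.908), TMEM52B (0.878) and TMPRSS2 (0.869). EMX1 is a homeobox gene and TMPRSS2 a serine protease of epithelial membranes. LRP2 had no gene above 0.663 (TM4SF4), followed by F3 (0.639) and LGALS2 (0.636). CUBN was most like RNF128 (0.852), MEP1A (0.822) and C12H2orf54 (0.806), and AQP1 most like C1H1orf168 (0.763), TAC3 (0.746) and PLA2G2A (0.731). Among the 7 genes r was 0.83 for FXYD2 with MAL, 0.81 for FXYD2 with LGALS2, 0.66 for FXYD2 with CALB1 and 0.32 for LRP2 with CUBN.

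Lists of related genes were read in the same split, by count and median, with no test of a list. Of 14 measured proximal tubule genes, 10 were higher and none of the 14 lower in the tubule set at E28, with a median log2 ratio of 1.23. SLC34A1 had 4.47 CPM in the tubule set and 0.13 CPM in the duct set, from 103 UMIs against 1. SLC27A2, a fatty acid transporter, had 19.4 and 5.58 CPM, and SLC13A1, the sulfate transporter, had 55 UMIs and 1. SLC22A6, the organic anion transporter, had 55 UMIs in the tubule set and 2 in the duct set. At E31, 2 of 11 measured proximal genes were higher and 1 lower. In the tubule set of E31 against E28, 7 of 14 proximal genes were lower and none of the 14 higher, with a median log2 ratio of -1.01, beside -0.43 for the 6 measured transport genes and -0.04 for all genes.

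Of 11 measured loop and distal tubule genes, 3 were higher and 6 lower in the tubule set at E28. SLC12A1 had 12.5 CPM in the tubule set and 1.69 CPM in the duct set, IRX1 32.6 and 6.09 CPM, and IRX2 37.1 and 15.6 CPM. TFAP2B had 10.8 CPM in the tubule set and 78.1 CPM in the duct set, and WFDC2 had 108 and 382 CPM. The distal list was therefore divided by GATA3, with SLC12A1 and the IRX genes higher on the side without it and TFAP2B and WFDC2 higher on the side of CALB1, although the SLC12A1-rich cluster 14 also had 244 CPM of TFAP2B. Of 12 measured duct genes, 6 were lower and none of the 12 higher at E28. WNT9B had 0.217 CPM in the tubule set and 14.9 CPM in the duct set, SCNN1A, a subunit of the epithelial sodium channel, 2.08 and 25.5 CPM, and TFAP2A 9.07 and 75.3 CPM.

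Relatives of the 7 genes mostly did not follow them. Of 9 measured genes of the Na,K-ATPase and FXYD families, 2 were lower and none of the 9 higher in the tubule set at E28. FXYD3, another regulator of the pump, had 1 UMI in the tubule set and 57 in the duct set, the opposite side from FXYD2. FXYD5 had 3.43 CPM in the tubule set and 7.52 CPM in the duct set. Of 3 galectins, LGALS3 was lower, at 1.21 CPM in the tubule set and 5.32 CPM in the duct set, again on the other side from LGALS2. Of 8 genes of the LDL receptor family, VLDLR was lower, at 7.72 CPM in the tubule set and 28.3 CPM in the duct set, and LRP1B was higher, with 21 UMIs and 3.

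Among 6 megalin and cubilin partners, FOLR1, the folate receptor, was the 1 past 2-fold, lower in the tubule set at 6.55 CPM against 42.9 CPM in the duct set at E28 and at 7.66 CPM against 31.2 CPM at E31. Among 4 relatives of MAL, MARVELD2 was lower, at 1.82 CPM in the tubule set and 7.39 CPM in the duct set. Among 6 genes of epithelial calcium handling, CALB2, which encodes calretinin, was higher with 65 UMIs in the tubule set and 3 in the duct set, opposite to CALB1, and SLC8A1, the sodium-calcium exchanger, was lower at 26.9 and 60.2 CPM. Among 3 measured aquaporins, AQP8 was higher at E28, with 47 UMIs in the tubule set and 6 in the duct set, and AQP3 at E31, at 26.1 and 9.92 CPM.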

How the data were processed

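The values the authors deposited are raw UMI counts per gene and barcode, made with Cell Ranger 2.1.0 per the submitters' processing notes. No source used here gives the build or annotation, so no coordinates are printed. The 7 genes and all lists were chosen with earlier results of these data known. Doublets were called with Scrublet in scanpy 1.11.5, which called 0, 64, 7 and 5 at E24, E28, E31 and E37. The call had not worked at E24, E31 and E37, where it marked under 0.5%. Each library was normalized to 10000 UMIs, log-transformed and clustered on 2000 variable genes with 30 principal components, 15 neighbours and Leiden resolution 1. The 7 genes, PAX8, GATA3 and the lists of related genes were left out. This gave 29, 23, 23 and 28 clusters. Names needed at least 3 markers at 2-fold over the median cluster, with thresholds set after the data were seen. A cluster named tubule-like was denied the name where GATA3 exceeded PAX8, also set then.

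Levels have exact Poisson intervals, shares exact Clopper-Pearson intervals and ratios exact conditional binomial intervals, all at 95% and all for counting error only. Named genes are the 7, the 3 most like each, and up to 4 per direction in a list by the interval bound nearest 1. Clusters in the likeness measure had at least 30 cells. HNF4A, AMN, DAB2, AFP, EPCAM and HBZ, and the cluster pair and division at E37, were named after their values were seen. Scripts were tested on simulated counts. FBP1, FXYD7 and LRP5 were in lists and were not found by symbol. The proximal set was to rest on HNF4A and another gene, but rested on HNF4A alone, a change made after the data were seen; the other gene is not reported here, nor counted in its list. Python 3.11.15, numpy 2.4.6, scipy 1.17.1, pandas 2.3.3 and matplotlib 3.10.9 were used.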

Additional observations from a re-analysis of the deposited data

How the results depend on the processing

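No paired analysis was possible because each stage has 1 library. No alternative reversed the direction of a gene counted as 2-fold apart in the split or between stages. For the split of tubule against duct, 5 other ways of making the sets moved values beyond counting error, with the cause not tested, and all values that follow are log2 ratios. At 2 UMIs, CALB1 was -6.68 at E28 and -5.74 at E31, FXYD2 0.036 and 0.65, and LRP2 2.49 at E28. With the split called on thinned barcodes, CALB1 was -3.83 and -3.22, FXYD2 0.017 and 2.0, LRP2 2.45 and 1.31, and MAL 1.72 at E31. With named clusters alone, CALB1 was -7.63, FXYD2 4.62, LGALS2 4.90 and LRP2 3.16 at E28, and E31 had no duct-like cluster and gave no value. With clusters of more GATA3 than PAX8 added to the duct side, which was chosen after seeing the data, CALB1 was -7.33 at E28 and -7.62 at E31, FXYD2 1.32 and 2.46, LGALS2 5.10 and 4.46, LRP2 4.19 and 4.20, and MAL 1.53 at E31. With cluster 9 of E28 then left out of the tubule side, also chosen after seeing the data, CALB1 was -7.29, FXYD2 1.5, LGALS2 5.28 and LRP2 4.40 at E28. Removing doublets at the expected rate moved none of these 10 values.

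For stages, at 2 UMIs the log2 ratio of E31 over E28 in the tubule set was 0.68 for CALB1, against -0.17 at 1 UMI, so its sign is not settled, -0.56 for FXYD2 and -1.35 for LGALS2. Without erythroid-like clusters and cluster 20 of E31, chosen after seeing the data, it was -0.83 for FXYD2 and -0.39 for MAL. With doublets removed at the expected rate, AQP1 in the tubule set was -5.15 for E28 over E24, and CALB1 in the duct set was -0.071 for E31 over E28. Without clusters 23 and 26 of E24, chosen after seeing the data, LGALS2 in the duct set was 3.58 for E28 over E24, against -0.29 with them, since 14 of its 15 UMIs at E24 lay in the barcodes left out. Removal of doublets at the expected rate gave library levels of 1.20, 237 and 223 CPM for CALB1 at E24, E28 and E31. It gave 0.445 CPM for CUBN, 1.23 for FXYD2 and 1.63 for LGALS2 at E24. Without cluster 20, an alternative also chosen after seeing the data, E31 levels were 222 CPM for CALB1, 42.8 for FXYD2 and 37.5 for MAL.

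Thinning gave co-detection ratios at E28 of 7.56 for FXYD2 with LGALS2, 6.37 for FXYD2 with LRP2 and 2.98 for FXYD2 with MAL. It gave 2.54 for FXYD2 with CALB1, 11.9 for LGALS2 with LRP2 and 2.60 for MAL with LRP2. The ratios of LGALS2 with CALB1 and of CALB1 with LRP2 turned to 0.501 and 0.745, on few shared barcodes. At E31 they were 10.1 for FXYD2 with LGALS2, 5.68 for FXYD2 with LRP2, 4.84 for FXYD2 with MAL, 9.40 for LGALS2 with LRP2, 4.62 for LGALS2 with MAL, 3.17 for MAL with LRP2 and 0.390 for CALB1 with LRP2. With all genes in the clustering, the highest cluster at E31 was at 3515 CPM for CALB1, 765 for FXYD2, 276 for LGALS2, 190 for LRP2 and 253 for MAL, and at E37 at 348 for CALB1 and 111 for MAL. With a pseudocount of 1 CPM, LGALS2 and LRP2 each kept 1 of their 3 most alike genes. Thinning moved 27 of 28 shares. Counts of all genes past the threshold ran from 235 to 2563, and from 676 to 4399 at 1.5-fold, 1636 to 6298 at 1 UMI and 36 to 1407 at 100 UMIs.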
